A study of Homo sapiens with 8 samples.

Results

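The expression of 10 chemokine genes was examined in 2 squamous carcinoma cell lines, A431 and CAL27, with and without a NEDD8 inhibitor. The genes were chosen by name from the 61533 gene identifiers in the count tables, and fall into attractants of neutrophils (CXCL1, CXCL2, CXCL3 and CXCL8), of monocytes (CCL2 and CX3CL1) and of T cells (CXCL10, CXCL11, CCL5 and CCL20). All 10 carried counts in at least 1 library and were among the 18738 genes that passed the filter on low counts. For CCL2 and CX3CL1 this was through the CAL27 libraries alone. CXCL10 and CCL20 had some counts in A431 but also passed the filter only through CAL27, which limits their tests in A431. A431 is a human epidermoid carcinoma line and CAL27 a human squamous carcinoma line. Each was kept in medium with DMSO, the solvent control, or with an agent that the labels call NEDD8i for 16 h, which gives 4 groups of 2 libraries: A431 with DMSO, A431 with NEDD8i, CAL27 with DMSO and CAL27 with NEDD8i. The labels give neither the compound behind that name nor its dose, and do not state the source of the replicates of a group, and if they share a culture the p-values below measure technical spread only. Each group is a single cell line in culture, and the labels name no other cells.

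Chemokines are small secreted proteins that draw leukocytes along a gradient by binding receptors on those cells. CXCL1, CXCL2, CXCL3 and CXCL8 act on neutrophils through CXCR2 (CXCL8 also through CXCR1), CCL2 acts on monocytes through CCR2, CX3CL1 on CX3CR1 cells, CXCL10 and CXCL11 on T cells through CXCR3, CCL5 on T cells and monocytes, and CCL20 on CCR6 cells such as a subset of helper T cells. In epithelial cells several of these genes are known targets of NF-kB and AP-1, and CXCL10 and CXCL11 of interferon-activated factors. NEDD8 is a ubiquitin-like protein whose attachment to cullins activates cullin-RING ubiquitin ligases. Substrates of those ligases include the NF-kB inhibitor protein encoded by NFKBIA and, through KEAP1, the transcription factor NRF2.

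RNA was read from the 3′ end of messages, and levels are given in CPM, a gene's counts divided by the library's scaled total and multiplied by 1e+06, after scaling by trimmed mean of M values (TMM). The libraries held 49037868 to 62509817 counts, so that 3 counts correspond to 0.0480 to 0.0612 CPM in a library. Changes are log2 ratios from edgeR's quasi-likelihood test with approximate standard errors, and a gene is said to have risen or fallen where the p-value adjusted over all 18738 genes tested was under 0.05. The 2 libraries of every group were alike (r of 0.981 to 0.986 across genes), and no library stood apart from its group. All 10 listed squamous epithelial markers were detected in every group. Of 16 leukocyte markers, 9 had no count in any library, the pan-leukocyte gene PTPRC among them. The levels of a bulk culture cannot tell fewer cells of a kind from less RNA per cell.

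RefSeq promoter windows (GRCh38.p14) were at hand for 7 of the 10 genes, CXCL1, CXCL2, CXCL3, CXCL8, CXCL10, CXCL11 and CCL20. The window of CXCL11 lies inside the count table's gene. The 5 below are shown because the first 4 belong to neighbouring genes of related function whose RNA changed differently, and the last because its RNA was nearly lost in CAL27. They are the 250 bases before the RefSeq start (222 for CXCL8, whose last 28 are left off because they lie inside the count table's gene), written 5′ to 3′ along the gene's strand, with matches to the letters GGNNTTTCC (NF-kB), TGANTCA (AP-1) and GAAANNGAA (interferon response) on either strand in capitals.
CXCL8 promoter, chr4:73740319-73740540, plus strand: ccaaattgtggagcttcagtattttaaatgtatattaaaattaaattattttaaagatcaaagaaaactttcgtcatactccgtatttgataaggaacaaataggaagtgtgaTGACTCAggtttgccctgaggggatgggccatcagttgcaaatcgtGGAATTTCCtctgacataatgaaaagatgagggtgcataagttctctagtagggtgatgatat
CXCL1 promoter, chr4:73869143-73869392, plus strand: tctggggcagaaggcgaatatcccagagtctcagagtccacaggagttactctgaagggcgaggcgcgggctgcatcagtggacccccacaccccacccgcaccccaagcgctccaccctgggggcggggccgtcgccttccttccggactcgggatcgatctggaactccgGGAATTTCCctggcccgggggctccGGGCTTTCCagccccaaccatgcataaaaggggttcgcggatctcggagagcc
CXCL2 promoter, chr4:74099196-74099445, minus strand: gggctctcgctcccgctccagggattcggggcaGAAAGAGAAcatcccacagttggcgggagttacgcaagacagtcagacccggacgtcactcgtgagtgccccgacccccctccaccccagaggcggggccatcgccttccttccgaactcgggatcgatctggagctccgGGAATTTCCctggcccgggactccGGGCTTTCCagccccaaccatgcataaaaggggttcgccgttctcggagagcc
CXCL3 promoter, chr4:74038690-74038939, minus strand: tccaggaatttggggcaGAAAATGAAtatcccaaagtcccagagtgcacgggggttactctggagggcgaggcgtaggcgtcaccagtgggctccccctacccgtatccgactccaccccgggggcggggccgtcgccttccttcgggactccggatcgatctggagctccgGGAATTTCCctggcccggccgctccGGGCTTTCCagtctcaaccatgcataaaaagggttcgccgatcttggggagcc
CXCL10 promoter, chr4:76023498-76023747, minus strand: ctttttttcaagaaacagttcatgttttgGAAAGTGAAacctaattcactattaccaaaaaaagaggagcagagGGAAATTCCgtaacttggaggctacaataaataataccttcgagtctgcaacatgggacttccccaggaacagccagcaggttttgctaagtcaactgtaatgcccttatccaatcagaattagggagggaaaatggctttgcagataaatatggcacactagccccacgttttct

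The promoters of CXCL1 and CXCL3 were identical at 81.4% of aligned positions, those of CXCL2 and CXCL3 at 73.4%, and those of CXCL1 and CXCL2 at 70.1%. The CXCL8 promoter shared 43.9% to 47.9% with these. GGNNTTTCC matched all 7 windows, against 5.48% of the 35116 RefSeq promoter windows of the same length. CXCL1, CXCL2 and CXCL3 each held 2 such matches, the nearer of them 53 to 45 bases before the start in all 3 genes. CXCL8 held it 91 to 83 and CXCL10 176 to 168 bases before the start. TGANTCA, found in 6.57% of windows, matched CXCL8 137 to 131 bases and CXCL11 87 to 81 bases before the start. GAAANNGAA, found in 6.88% of windows, matched CXCL10 221 to 213, CXCL2 217 to 209 and CXCL3 233 to 225 bases before the start, and not CXCL1. No match of these motifs overlapped another. These are matches of letters in one window and were not tested for binding.

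With NEDD8i the counts of these 10 genes came mostly from CXCL8 in both lines. In A431, CXCL1, CXCL3, CXCL8 and CCL20 rose and CXCL11 and CCL5 fell, so that 6 of 10 were called, against 43.6% of all genes tested. Of these, 4 were higher, against 22.5%, and 2 lower, against 21.1%. Among the 4, CCL20 had passed the filter through CAL27 alone. In CAL27, 9 were called, against 49.6% of all genes: CXCL8 rose, against 23.2%, and 8 genes fell, against 26.4%. CXCL3 was not called there. The median log2 change of the 10 genes was 0.13 in A431 (1.03 over the 8 genes with counts, with a group at 0 counts set to its bound) and −3.13 in CAL27, beside −0.01 and −0.04 over all genes tested. The 0.13 takes CCL2 and CX3CL1, which had no counts in A431, as unchanged and is no measured size. CXCL8 was higher with NEDD8i in both lines, CXCL11 and CCL5 were lower in both, and CXCL1 and CCL20 were called in opposite directions. The A431 calls of CXCL11 and CCL20 rest on few counts and were lost in some settings. The libraries with NEDD8i and with DMSO did not overlap for 6 of 10 genes in A431, against 67.4% of all genes tested. In 4 of them NEDD8i was above DMSO (background 32.9%) and in 2 below (34.6%). In CAL27 they did not overlap for 9 of 10 genes, against 74.6%, with 1 above (35.0%) and 8 below (39.5%).

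**Figure D1:**
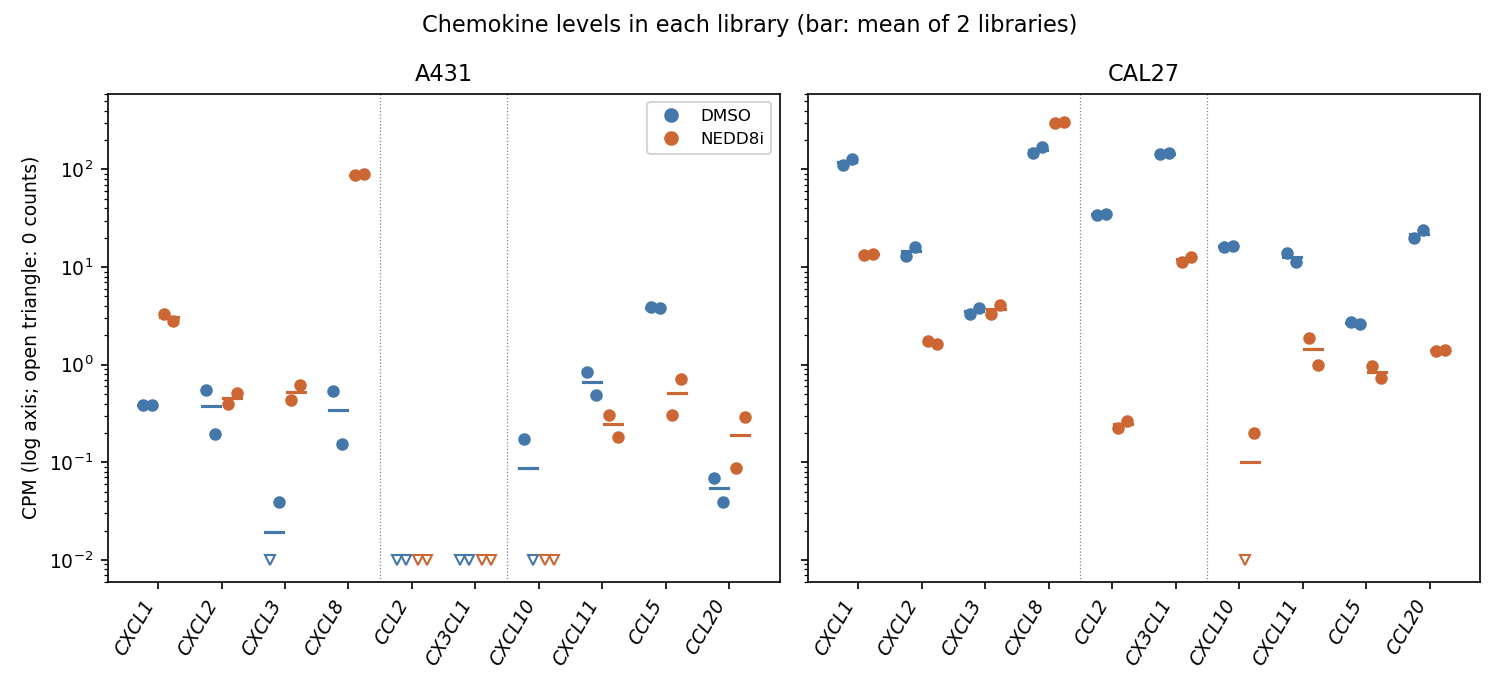
Level of each chemokine gene in CPM (log axis) in every library of A431 and CAL27, with DMSO (blue) and NEDD8i (orange). Points are libraries, bars the mean of 2 libraries, open triangles libraries with 0 counts, and dotted lines separate attractants of neutrophils, monocytes and T cells. CXCL8 moves from under 1 CPM to 87.1 and 89.4 CPM in A431, and CCL2 and CX3CL1 have no count in A431.

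CXCL8 (ENSG00000169429.11, GRCh38 chr4:73740541-73743716, plus strand) encodes interleukin-8, the best known neutrophil attractant. In A431 it stood at 0.539 and 0.155 CPM with DMSO (31 and 8 counts) and at 87.1 and 89.4 CPM with NEDD8i (3981 and 4911 counts). Both NEDD8i libraries lay far above both DMSO libraries, a rise of 7.94 ± 0.16 on the log2 scale or 246-fold (adjusted p = 2.34e-16). The size of that rise rests on few counts in DMSO: it was 9.14 without DMSO replicate 1 and 7.35 without DMSO replicate 2. In CAL27 it stood at 147 and 168 CPM with DMSO and at 296 and 308 CPM with NEDD8i. The groups did not overlap there either, and the rise was 0.94 ± 0.08, or 1.91-fold (adjusted p = 1.99e-08). The response of CAL27 differed from that of A431 by −7.00 ± 0.19 on the log2 scale (adjusted p = 1.17e-13). With DMSO the level in CAL27 was 439-fold that in A431, and with NEDD8i the A431 libraries remained below every CAL27 library.

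CXCL1 (ENSG00000163739.5, chr4:73869393-73871308, plus strand), 125.7 kb downstream of CXCL8, moved in opposite directions in the 2 lines. In A431 the DMSO libraries stood at 0.382 and 0.388 CPM and the NEDD8i libraries at 3.33 and 2.82 CPM. In CAL27 the DMSO libraries stood at 110.4 and 128 CPM and the NEDD8i libraries at 13.3 and 13.7 CPM. The groups of neither line overlapped. CXCL1 thus rose by 2.98 ± 0.21 (7.90-fold, adjusted p = 2.9e-09) in A431 and fell by 3.14 ± 0.10 (8.82-fold lower, adjusted p = 3.89e-14) in CAL27. The difference between the responses was −6.12 ± 0.22 (adjusted p = 1.91e-12). Even after these changes CXCL1 remained higher in CAL27 with NEDD8i than in any A431 library.

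CXCL2 (ENSG00000081041.9, chr4:74097040-74099195, minus strand) stood at 0.556 and 0.194 CPM in A431 with DMSO and at 0.394 and 0.510 CPM with NEDD8i. These groups overlapped, and the log2 change of 0.25 ± 0.41 was not called (adjusted p = 0.677). In CAL27 it stood at 12.99 and 16.2 CPM with DMSO and at 1.75 and 1.62 CPM with NEDD8i, without overlap, and fell by 3.12 ± 0.28 (8.67-fold lower, adjusted p = 4.12e-08). The responses of the 2 lines differed by −3.37 ± 0.50 (adjusted p = 4.21e-05).

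CXCL3 (ENSG00000163734.4, chr4:74036589-74038689, minus strand) showed the reverse arrangement, with a call in A431 and none in CAL27. In A431 it had 0 and 2 counts with DMSO and 20 and 34 counts with NEDD8i, or 0 and 0.0388 against 0.438 and 0.619 CPM. The summed counts gave a 29.3-fold ratio with an exact 95% interval of 7.72 to 248 that covers counting error only and is too narrow if a pair gave 2 counts, and the fitted log2 rise was 4.69 ± 0.71 (adjusted p = 3.35e-05). That rise was 3.71 without DMSO replicate 1 and 7.90 without DMSO replicate 2. In CAL27 it stood at 3.34 and 3.77 CPM with DMSO and at 3.31 and 4.06 CPM with NEDD8i. Those groups overlapped, with a log2 change of 0.05 ± 0.33 (adjusted p = 0.924) while CXCL1 and CXCL2 fell. The responses of the 2 lines differed by −4.64 ± 0.81 (adjusted p = 0.000235).

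CXCL1, CXCL2 and CXCL3 have similar transcripts, and a read from a shared stretch cannot be assigned to one of them. Of all 50-base stretches of their longest GENCODE 29 transcripts, 5.73%, 9.24% and 5.26% also occurred in another gene, in each case in the remaining 2 of the 3. Within the last 500 stretches, where a 3′ method reads, the share was 9.20% for CXCL1, 9.20% for CXCL2 and 0% for CXCL3. CXCL8 shared no such stretch. How the reads of shared stretches were counted was not tested.

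In A431 the 4 neutrophil attractants summed to 1.48 and 0.776 CPM with DMSO and 91.3 and 93.4 CPM with NEDD8i. In CAL27 their sum was 274 and 316 CPM with DMSO and 314 and 327 CPM with NEDD8i, and these groups overlapped. The makeup of the sum shifted in both lines. CXCL8 made up 5.71% ± 3.81 (SD, n = 2) of the counts of the 10 chemokines in A431 with DMSO and 94.6% ± 0.105 with NEDD8i. In CAL27 its share was 29.8% ± 0.902 with DMSO and 89.6% ± 0.0559 with NEDD8i. These are shares of reads, not corrected for length. The neutrophil attractants as a whole made up 19.1% ± 5.62 and 98.99% ± 0.347 in A431 and 55.8% ± 2.10 and 95.2% ± 0.00919 in CAL27.

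**Figure D2:**
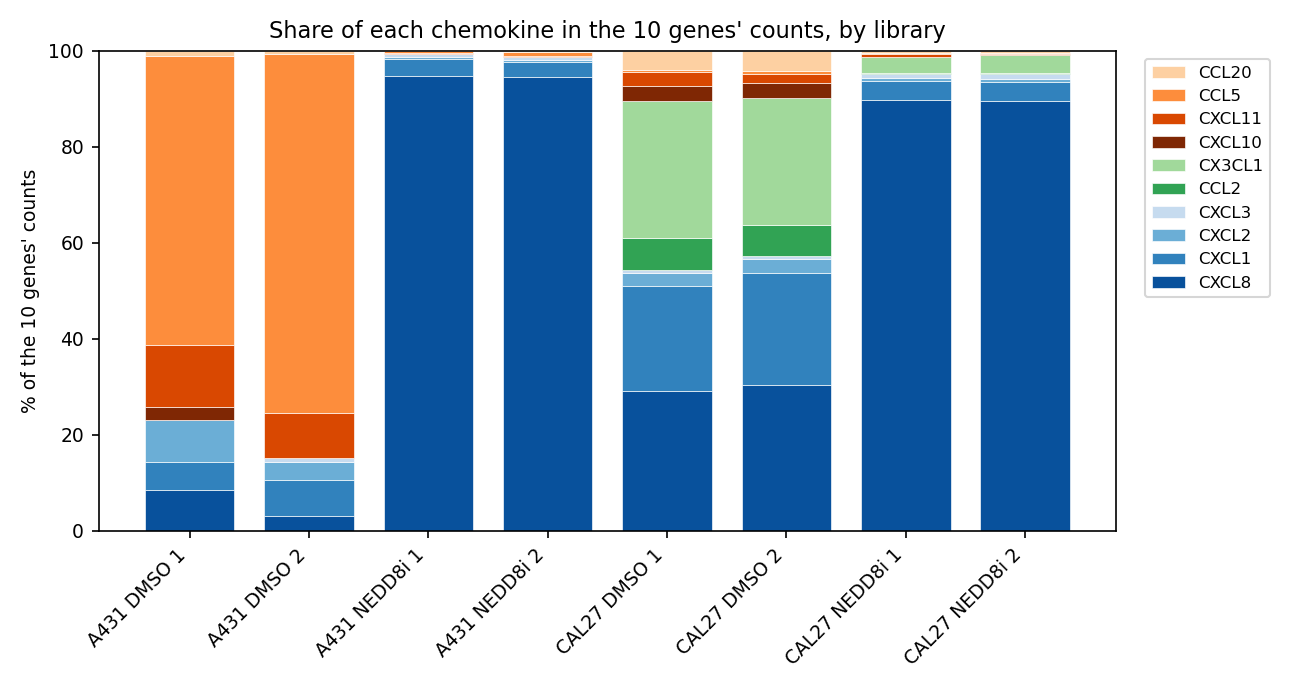
Share (%) of each chemokine in the summed counts of the 10 genes, as a stacked bar for each of the 8 libraries; blues are attractants of neutrophils, greens of monocytes and oranges of T cells. CCL5 takes most of the counts in A431 with DMSO and CXCL8 takes 94.6% and 89.6% on average in A431 and CAL27 with NEDD8i.

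Both monocyte attractants had counts in every CAL27 library and in no A431 library, and both fell in CAL27. CCL2 (ENSG00000108691.9, chr17:34255285-34257203, plus strand), the main ligand of CCR2, stood at 34.4 and 35.3 CPM in CAL27 with DMSO (1854 and 2330 counts) and at 0.223 and 0.267 CPM with NEDD8i (12 and 16 counts). The groups lay far apart, and CCL2 fell by 7.13 ± 0.22 on the log2 scale, or 140.2-fold (adjusted p = 7.16e-13). CX3CL1 (ENSG00000006210.7, chr16:57372477-57385044, plus strand) encodes fractalkine, a chemokine made as a membrane-bound protein and shed by proteases. It stood at 143 and 147 CPM in CAL27 with DMSO and at 11.2 and 12.8 CPM with NEDD8i, without overlap, and fell by 3.59 ± 0.09 (12.1-fold lower, adjusted p = 6.4e-14).

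No A431 library held a count of CCL2 or CX3CL1. A count of 0 over a group allows up to 0.0275 CPM in A431 with DMSO and 0.0298 CPM with NEDD8i, taking 3 counts over the group as the limit. Against that limit, CCL2 was at least 1266-fold and CX3CL1 at least 5274-fold higher in CAL27 with DMSO than in A431 with DMSO. The limit is set in counts, and since both mates of a pair could be counted, the same limit set in read pairs would give smaller folds. With no counts in A431 its response could not be measured, and the difference between the lines was not called by edgeR for either gene (adjusted p = 1 for both). DESeq2 called that difference for CCL2 (log2 −7.23, adjusted p = 0.00229). With no A431 counts, that call reflects the fall in CAL27 and does not measure a difference between the lines.

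The CXCR3 ligands fell in CAL27 and were low in A431. CXCL10 (ENSG00000169245.6, chr4:76021118-76023497, minus strand) stood at 16.2 and 16.6 CPM in CAL27 with DMSO (872 and 1094 counts) and at 0 and 0.200 CPM with NEDD8i (0 and 12 counts). Both NEDD8i libraries lay below both DMSO libraries. CXCL10 fell by 7.25 ± 0.56 (adjusted p = 1.35e-08), a size that rests on 12 counts in 1 library: it was −12.82 without that library, NEDD8i replicate 2, and −6.34 without NEDD8i replicate 1. DESeq2 gave −7.31 with an adjusted p of 0.0718. In A431 its only counts were 10 in DMSO replicate 1, so the groups overlapped. For the medians the change is set at the 3-count limit, 2.92-fold lower, which rests on that library and is no measured minimum. The fall was not called (adjusted p = 0.0812). It was called without A431 DMSO replicate 2 (adjusted p = 0.00632), without CAL27 NEDD8i replicate 1 (0.0251) or 2 (0.0286), and with no filter on low counts (0.00384), and without A431 DMSO replicate 1 no counts were left.

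CXCL11 (ENSG00000169248.13, chr4:76033682-76041415, minus strand) stood at 14.03 and 11.2 CPM in CAL27 with DMSO and at 1.90 and 1.002 CPM with NEDD8i, without overlap, and fell by 3.12 ± 0.31 (8.72-fold lower, adjusted p = 1.64e-07). In A431 it stood at 0.834 and 0.485 CPM with DMSO (48 and 25 counts) and at 0.306 and 0.182 CPM with NEDD8i (14 and 10 counts), without overlap, and fell by 1.46 ± 0.45 (adjusted p = 0.0149). That call was lost without DMSO replicate 1 (adjusted p = 0.145), without NEDD8i replicate 2 (0.132) and with the A431 libraries fitted alone (0.137). The responses of the lines differed by −1.66 ± 0.58 (adjusted p = 0.034). This difference lost its call without A431 DMSO replicate 2 (0.0841), A431 NEDD8i replicate 1 (0.239), CAL27 DMSO replicate 1 (0.11) or CAL27 NEDD8i replicate 2 (0.0813), and with counts halved (0.0588).

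CCL5 (ENSG00000271503.6, chr17:35871491-35880793, minus strand), also named RANTES, was the only listed gene whose DMSO level was not called different between the lines. It stood at 3.86 and 3.84 CPM in A431 with DMSO and at 0.306 and 0.710 CPM with NEDD8i. In CAL27 it stood at 2.74 and 2.60 CPM with DMSO and at 0.967 and 0.735 CPM with NEDD8i. The groups of neither line overlapped, and CCL5 fell by 2.89 ± 0.39 (7.43-fold lower, adjusted p = 7.99e-06) in A431, or 3.63 without NEDD8i replicate 2, and by 1.65 ± 0.36 (3.14-fold lower, adjusted p = 0.000952) in CAL27. The difference of 1.24 ± 0.52 between these falls was not called (adjusted p = 0.0794), but was without A431 NEDD8i replicate 2 (1.98, adjusted p = 0.0118). CCL5 made up 67.4% ± 10.3 of the chemokine counts of A431 with DMSO. Of the 50-base stretches of its longest transcript, 17.5% recurred in other genes, the highest share among the listed genes. Within the last 500 stretches the share was 14.8%. This may make its counts less certain than those of the other listed genes, which was not tested.

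CCL20 (ENSG00000115009.13, chr2:227813842-227817564, plus strand), the ligand of CCR6, stood at 20.1 and 23.8 CPM in CAL27 with DMSO and at 1.39 and 1.42 CPM with NEDD8i, without overlap, and fell by 3.96 ± 0.24 (15.6-fold lower, adjusted p = 2.1e-10). In A431 it had 4 and 2 counts with DMSO and 4 and 16 counts with NEDD8i, or 0.0695 and 0.0388 against 0.0875 and 0.291 CPM. CCL20 passed the filter through CAL27 alone. The groups did not overlap in CPM, and the rise of 1.80 ± 0.66 was called (adjusted p = 0.0346). It rests mainly on NEDD8i replicate 2, without which it was 0.66 (adjusted p = 0.644), and the call was also lost without DMSO replicate 2 (1.48, adjusted p = 0.146) and with counts halved (adjusted p = 0.0915). The responses of the lines differed by −5.76 ± 0.69 (adjusted p = 4.59e-06).

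Summed over the 4 T cell attractants, the level went from 4.94 and 4.37 to 0.700 and 1.18 CPM in A431 and from 53.0 and 54.1 to 4.26 and 3.36 CPM in CAL27. The median log2 change was −1.50 in A431, with CXCL10 at its bound, and −3.54 in CAL27. For the neutrophil attractants the medians were 3.84 and −1.53, and for the monocyte attractants −5.36 in CAL27. Over all 10 genes the summed level went from 6.41 and 5.14 to 92.0 and 94.6 CPM in A431 and from 505 and 552 to 330.1 and 344 CPM in CAL27, so that the lines lay closer together with NEDD8i than with DMSO.

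**Figure D3:**
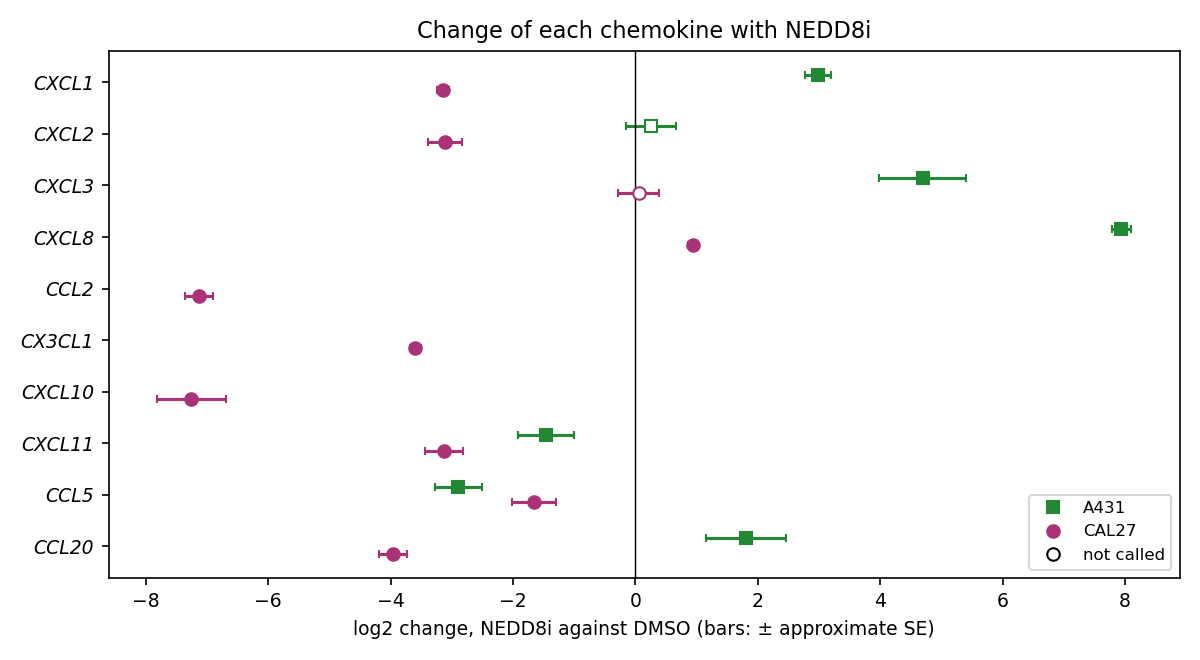
Log2 change with NEDD8i against DMSO for each chemokine, with approximate standard errors, in A431 (green squares) and CAL27 (purple circles). Open symbols were not called; CCL2, CX3CL1 and CXCL10 have no A431 symbol because a group there holds no counts. CXCL1 and CCL20 lie on opposite sides of 0 in the 2 lines, and CXCL8 lies right of 0 in both. The CCL20 rise in A431 rests mainly on NEDD8i replicate 2.

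Tested for the difference between the lines, the response of CAL27 was lower than that of A431 for CXCL1, CXCL2, CXCL3, CXCL8, CXCL11 and CCL20, which is 6 of 10 against 19.8% of all genes tested (34.0% in either direction). It was called higher for none by edgeR or DESeq2, against 14.2% of all genes, and CCL5 alone was higher at an unadjusted edgeR p of 0.0299. Low counts in A431 make some of these sizes uncertain: without A431 DMSO replicate 1 they were −8.18 for CXCL8, −4.33 for CXCL2 and −3.64 for CXCL3, without its replicate 2 −6.40 for CXCL8 and −7.83 for CXCL3, and without A431 NEDD8i replicate 2 −4.62 for CCL20, all still called. The median difference of the 10 genes was −4.12, beside −0.04 over all genes. That median includes fitted values for CCL2 and CX3CL1, which had no counts in A431, and for CXCL10, which had none there with NEDD8i. It is therefore no measured size. With DMSO, 9 of the 10 genes were higher in CAL27 than in A431 by edgeR (8 by DESeq2, which did not call CXCL10) and none was lower by either, also at an unadjusted p under 0.05, against 29.9% and 29% of all genes (58.9% in either direction). CCL2, CX3CL1, CXCL10 and CCL20 passed the filter only through CAL27, the line where they were higher. Their part in that count is thus not independent of the filter. The DMSO differences ranged from 18.9-fold for CXCL11 through 38.0-fold for CXCL2, 175-fold for CXCL10, 308-fold for CXCL1 and 384-fold for CCL20 to 439-fold for CXCL8 among the genes with more than 3 counts in A431. CXCL3, with 2 counts there, gave a 195-fold ratio (exact 95% interval 53.6 to 1615), and CCL5 was at −0.53 ± 0.34 (adjusted p = 0.194). Without A431 DMSO replicate 1 the log2 differences were 9.97 for CXCL8, 6.22 for CXCL2, 6.44 for CXCL3 and 12.81 for CXCL10, and without replicate 2 they were 8.18 for CXCL8, 10.63 for CXCL3 and 6.53 for CXCL10. The comparison of the DMSO groups shares its libraries with both responses, so the 2 sets of values are not independent.

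Of 34 further ligand genes listed, 18 had any count and 10 passed the filter, of which 1 rose and 4 fell in A431 and 1 rose and 2 fell in CAL27. Over all tested genes, 22.5% were higher and 21.1% lower in A431, and 23.2% were higher and 26.4% lower in CAL27. CXCL16, a membrane-bound ligand of CXCR6, was the one that rose, from 57.0 and 53.0 to 95.5 and 89.4 CPM in A431 (0.75 ± 0.06, adjusted p = 9.66e-09) and from 116 and 119 to 183 CPM in both NEDD8i libraries in CAL27 (0.64 ± 0.06, adjusted p = 2.89e-08). CXCL12, the ligand of CXCR4 and ACKR3, went from 122 and 138 counts to 2 and 0 in A431 (119.9-fold lower, exact 95% interval 32.9 to 996, adjusted p = 4.33e-05) and had no counts in CAL27. CCL22, a ligand of CCR4, fell in both lines, by 3.86 ± 0.73 in A431 and 3.24 ± 0.64 in CAL27. In A431 it went from 80 and 116 counts to 12 and 0, so the size there rests on few counts. CCL28, a mucosal chemokine, fell in CAL27 from 32.3 and 30.8 to 10.3 and 7.60 CPM (−1.82 ± 0.17, adjusted p = 9.34e-08) and was not called in A431. XCL1 (−1.94 ± 0.60, adjusted p = 0.0148) and XCL2 (22 counts against 0, at least 6.75-fold lower, adjusted p = 0.0104), near-identical genes whose reads may not be separable, fell in A431. CXCL5, CXCL6, CXCL17 and CCL26 passed the filter without a call in either line.

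The other chemokine genes beside the listed ones on chromosome 4 had few counts. The chemokine genes between CXCL8 and CXCL2 are CXCL6, PF4V1, CXCL1, PF4, PPBP, CXCL5 and CXCL3. Of these, CXCL6 had 34 counts in A431 with DMSO, 22 in A431 with NEDD8i, 2 in CAL27 with DMSO and 0 in CAL27 with NEDD8i, and CXCL5 had 28 and 12 counts in CAL27 and none in A431. CXCL9, the third CXCR3 ligand, which lies beside CXCL10, had 24 and 6 counts in CAL27 and none in A431.

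Of 23 chemokine receptor genes, 6 passed the filter. ACKR3, a scavenger receptor of CXCL12 and CXCL11, rose in A431 from 301 and 284 to 477 and 476 CPM (0.71 ± 0.07, adjusted p = 1.58e-07) and fell in CAL27 from 84.1 and 74.2 to 6.88 and 5.31 CPM (−3.70 ± 0.09, adjusted p = 1.82e-15). The difference between the lines was −4.41 (adjusted p = 3.99e-14). CXCR2, the receptor of the neutrophil attractants, stood at 2.85 and 3.71 CPM in A431 with DMSO and was not called there, and fell in CAL27 from 1.001 and 0.787 to 0.372 and 0.434 CPM (−1.14 ± 0.38, adjusted p = 0.0195).

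Of 29 cytokine and receptor genes listed around chemokine induction, 25 were tested. They differ in role, and the list includes the antagonist gene IL1RN. In A431, 11 rose and 2 fell, and in CAL27, 6 rose and 11 fell, with medians of 0.45 (22 genes with counts) and −0.15. The shares over all tested genes were 22.5% higher and 21.1% lower in A431, and 23.2% higher and 26.4% lower in CAL27. IL36G, an epithelial member of the interleukin-1 family, rose in A431 from 0.313 and 0.310 to 6.08 and 4.72 CPM (4.10 ± 0.42, adjusted p = 4.13e-07) and stood at 0.927 and 1.67 against 0.985 and 1.72 CPM in CAL27. TNF had no counts in A431 and fell in CAL27 from 6.60 and 6.93 to 0.409 and 0.535 CPM (−3.83 ± 0.37, adjusted p = 3.86e-07). IL11 rose in both lines, by 0.79 ± 0.30 in A431 (adjusted p = 0.0419) and 4.57 ± 0.33 in CAL27 (adjusted p = 3.23e-09), and IL24 rose in CAL27 from 0.297 and 0.0908 to 9.07 and 9.46 CPM. CSF3 and IL33 went from 58 and 32 counts to 0 in CAL27. IL1A and IL1B, named here after their values were seen, are the interleukin-1 cytokines. IL1A rose by 2.53 in A431 (adjusted p = 2.04e-13) and fell by 0.70 in CAL27 (adjusted p = 7.72e-07), and IL1B rose by 1.88 (adjusted p = 1.3e-11) and fell by 1.82 (adjusted p = 6.12e-12).

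Of 27 NF-kB regulators, 13 rose and 6 fell in A431, and 12 rose and 8 fell in CAL27, with medians of 0.35 (26 genes with counts) and 0.19, against 22.5% higher and 21.1% lower over all tested genes in A431 and 23.2% higher and 26.4% lower in CAL27. NFKBIA, the NF-kB inhibitor and itself a target gene, fell from 69.7 and 65.7 to 34.0 and 34.1 CPM in A431 (−0.99 ± 0.07, adjusted p = 6.18e-09) and from 163 and 172 to 17.7 and 20.7 CPM in CAL27 (−3.12 ± 0.08, adjusted p = 2.59e-15). BIRC3, an inhibitor of apoptosis and ubiquitin ligase, fell by 2.69 ± 0.23 and 2.55 ± 0.17. TNFAIP3, which encodes the negative regulator A20, rose in both lines, by 2.15 ± 0.08 in A431 and 0.35 ± 0.06 in CAL27. BCL3 rose by 1.25 ± 0.09 in A431 and fell by 1.90 ± 0.09 in CAL27. NFKBIZ was not called in A431 and fell by 2.30 ± 0.19 in CAL27, and TRAF1 fell by 2.24 ± 0.65 in A431 and was not called in CAL27. RNA levels do not show the activity of NF-kB, which was not measured.

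Of 35 interferon-branch genes listed, 29 were tested, of which 5 rose and 18 fell in A431 and 2 rose and 22 fell in CAL27, with medians of −0.48 and −1.13. Of all tested genes, 21.1% fell in A431 and 26.4% fell in CAL27, and 22.5% and 23.2% rose. IDO1, an interferon-induced tryptophan-degrading enzyme, went from 7.005 and 7.43 to 0.0875 and 0.164 CPM in A431 (−5.78 ± 0.29) and from 14.9 and 16.2 to 0.186 and 0.134 CPM in CAL27 (−6.60 ± 0.27). IRF1, a transcription factor of the CXCR3 ligand genes, fell by 1.62 ± 0.09 in A431 and 2.41 ± 0.09 in CAL27. The antiviral genes IFIT1, IFIT2, IFIT3 and RSAD2 fell, with changes of −1.70 (IFIT3) to −2.57 (IFIT1) in A431 and −2.81 (IFIT2) to −3.19 (IFIT3) in CAL27, and for each the fall was larger in CAL27 when the difference was tested. CXCL10 and CXCL11, by comparison, fell by 7.25 and 3.12 in CAL27, the former a size that rests on 12 counts in 1 library. In A431 CXCL11 fell by 1.46, a call lost in some settings, and CXCL10 was not called.

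All 14 genes of the list of AP-1, C/EBP and ATF factors, which also holds the zinc finger factor EGR1, were tested. Of them 9 rose and 4 fell in A431 and 8 rose and 6 fell in CAL27, beside 22.5% up and 21.1% down in A431 and 23.2% up and 26.4% down in CAL27 over all tested genes. FOSL1, an AP-1 subunit, rose in both lines, from 48.4 and 39.04 to 396 and 422 CPM in A431 (3.22 ± 0.09, adjusted p = 1.53e-14) and from 115 and 125 to 1060 and 894 CPM in CAL27 (3.02 ± 0.09, adjusted p = 1.45e-14). FOS fell by 1.54 ± 0.08 and 4.24 ± 0.09, FOSB by 1.12 ± 0.12 and 3.33 ± 0.14, JUNB by 0.71 ± 0.05 and 1.67 ± 0.05, and EGR1 by 1.20 ± 0.08 and 2.34 ± 0.08, in A431 and CAL27 respectively. CEBPD rose by 0.86 ± 0.13 in A431 and fell by 1.92 ± 0.13 in CAL27.

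Several chemokine messages are AU-rich, and 12 genes were listed for the decay of such messages. Some of these genes promote decay and others stabilise, so counts over the list give no direction of decay. Of the 12, 6 rose and 2 fell in A431 and 5 rose and 5 fell in CAL27. Among all genes tested, 22.5% were up and 21.1% down in A431 and 23.2% up and 26.4% down in CAL27. ZC3H12A, an RNase that degrades cytokine messages, fell by 0.94 ± 0.13 in A431 and 2.08 ± 0.11 in CAL27. ZFP36, which binds AU-rich elements and promotes decay, was not called in A431 and fell by 1.23 ± 0.11 in CAL27, ZFP36L2 fell by 0.75 ± 0.05 and 0.15 ± 0.06, and ZFP36L1 rose by 0.75 ± 0.06 and 0.37 ± 0.06. DUSP1, a phosphatase of stress kinases, rose by 0.80 ± 0.07 in A431 and fell by 0.68 ± 0.07 in CAL27, and MAPKAPK2, a kinase that stabilises such messages, rose by 0.41 ± 0.05 and 0.26 ± 0.05. Message stability was not measured.

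Of 14 tested genes for cleavage, shedding and surface binding of chemokines, 4 rose and 8 fell in A431 and 3 rose and 10 fell in CAL27, beside the same shares over all tested genes (22.5% and 21.1% in A431, 23.2% and 26.4% in CAL27). ADAM17, a sheddase of CX3CL1 and CXCL16, rose from 45.5 and 49.6 to 162 and 161 CPM in A431 (1.76 ± 0.06, adjusted p = 1.6e-13) and from 61.5 and 61.8 to 123 and 125 CPM in CAL27 (1.01 ± 0.06, adjusted p = 1.1e-10). DPP4, which trims and inactivates CXCL10 and CXCL11, fell by 1.19 ± 0.37 and 1.36 ± 0.41. The collagenase MMP1 rose by 2.17 ± 0.24 in A431 and fell by 2.31 ± 0.12 in CAL27, and MMP13 fell by 3.51 ± 0.16 and 4.97 ± 0.12. The cathepsin gene CTSS fell by 2.20 ± 0.13 and 2.12 ± 0.13, whereas CTSL rose by 1.22 ± 0.05 and 0.33 ± 0.05. Of the NRF2 genes, NQO1 rose by 1.63 ± 0.04 and 1.91 ± 0.04, HMOX1 by 2.87 ± 0.06 and 0.78 ± 0.08, and KEAP1 by 0.21 ± 0.06 and 0.80 ± 0.06, while NFE2L2, the gene of NRF2 itself, was not called in either line.

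**Figure D4:**
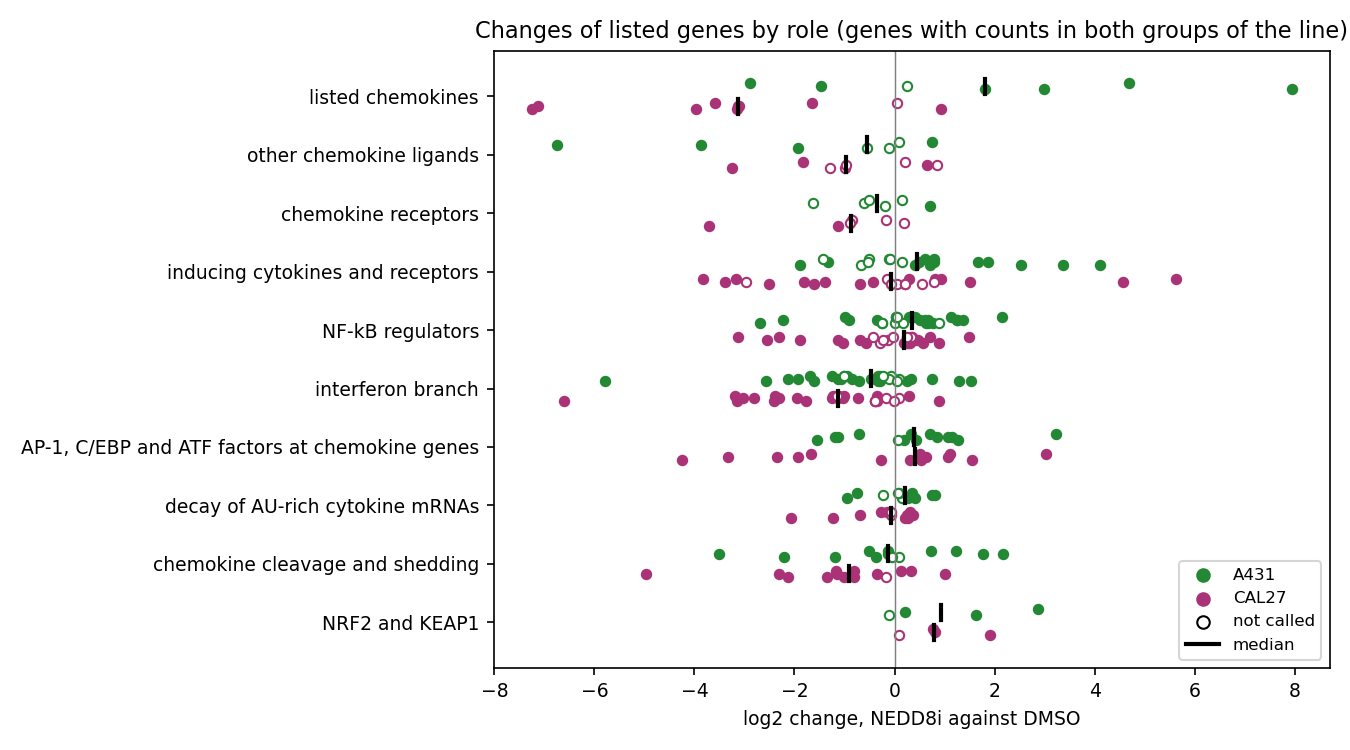
Log2 change with NEDD8i against DMSO of the tested genes of each list in A431 (green) and CAL27 (purple), with open circles for genes not called and a black bar for the median; genes with no counts in a group of the line are left out, which leaves 7 listed chemokines in A431 with a median of 1.80. In CAL27 all listed chemokines but CXCL8 and CXCL3 lie left of −1, while the lists of NF-kB and AP-1 genes spread to both sides of 0.

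The genes whose level followed that of a listed gene most closely over the 8 libraries were, for CXCL8, DGKH (Pearson r = 0.996), MED14OS (0.993) and BPNT2 (0.992). For CX3CL1 they were GPR85 (0.9996), PLXDC2 (0.999) and PTX3 (0.999), all with 0 counts in A431. For CCL20 they were TFCP2L1, TEKTIP1 and AKAP11 (0.993, 0.993 and 0.992). The 8 libraries come from only 4 groups, so these values describe agreement of group levels.

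Markers of other cell types were summed for each group. The 16 leukocyte markers summed to 7.23 to 7.68 CPM in A431 with DMSO and 1.84 to 2.44 with NEDD8i, and to 19.3 to 20.6 CPM in CAL27 with DMSO and 3.27 to 3.36 with NEDD8i. Among those markers PTPRC, CD3D, CD2, CSF3R and TYROBP were at 0 in every library. The 7 with counts were CD14, CD3E, LYZ, CSF1R, ITGAM, ITGAX and S100A12. CD14, which epithelial cells can also express, fell in both lines. With DMSO, S100A12 had 98 and ITGAM 70 counts in CAL27, and CSF1R 22 and LYZ 12 in A431. CD3E had 2 counts in CAL27 with DMSO and 11 with NEDD8i. The 7 fibroblast markers summed to 35.4 to 38.97 and 17.6 to 18.5 CPM in A431 and 20.8 to 24.1 and 6.49 to 10.8 CPM in CAL27, with DMSO and NEDD8i. The 5 endothelial markers summed to 19.6 to 21.9 and 5.30 to 5.56 CPM in A431 and 6.01 to 6.63 and 10.7 to 10.8 CPM in CAL27. The squamous markers summed to 13089 to 13107 and 15618 to 16072 CPM in A431 and 16643 to 16655 and 21772 to 22573 CPM in CAL27. The part of these markers in the chemokine changes was not tested.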

How the data were processed

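The deposited files hold gene counts for 8 libraries, made by the authors with featureCounts 2.0.8 on GENCODE 39 gene models, without strand and with each mate of a pair counted, per the file headers. Reads were prepared with a QuantSeq forward 3′ kit, per the labels' protocols. STAR and the GRCh38 build are named in the submitters' processing notes, with no version. Symbols were matched for 61415 of 61533 identifiers, and where a symbol stood on several identifiers the one with most counts was used. edgeR 4.0.16, run in R 4.3.3, tested the counts as deposited (TMM scaling, filterByExpr by group, 1 mean per group over all 8 libraries, 4 residual degrees of freedom, Benjamini-Hochberg adjustment, threshold 0.05), after the code was tested on simulated data. Exact intervals are Clopper-Pearson and cover counting error only, and are too narrow if a pair gave 2 counts. Since mates were counted singly, 70.2% to 76.7% of counts between 1 and 40 were even. Overlap of gene models was computed with GenomicRanges 1.54.1, and no listed chemokine shared exonic bases with another gene. DESeq2 1.42.0, other scaling and filters, halved counts, a replicate block, single-line fits and leaving out each library were tried. The chemokines, the gene lists and the tests were chosen with earlier results of these data known. From each further list, the 6 tested genes with the largest change among those called in a line were named, and from the other ligands each that passed the filter. Genes of like pattern were the 3 with the highest Pearson r of log2 CPM to the member of each attractant class with the highest mean. Same-numbered libraries did not deviate together (r of −0.03 to 0.02).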

Additional observations from a re-analysis of the deposited data

Results flagged for a closer look

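For 6 of the 10 chemokines the response of CAL27 to NEDD8i differed from that of A431 when the difference itself was tested with edgeR. These differences, on the log2 scale, were −6.12 for CXCL1 (adjusted p = 1.91e-12), −3.37 for CXCL2 (adjusted p = 4.21e-05), −4.64 for CXCL3 (adjusted p = 0.000235), −7.00 for CXCL8 (adjusted p = 1.17e-13), −1.66 for CXCL11 (adjusted p = 0.034) and −5.76 for CCL20 (adjusted p = 4.59e-06). The value for CXCL11 lost its call when any of 4 libraries was left out.

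The responses also differed between the lines for 32 further named genes, by an edgeR adjusted p of 0.0244 or less. Among ligands and receptors the differences were −1.90 for CCL28 and −4.41 for ACKR3. Among cytokines they were 3.77 for IL11 and −4.05 for IL36G. IL24 had 4 and 0 counts in the A431 DMSO libraries and 0 in both A431 NEDD8i libraries, so its fitted difference of 9.72 depends on a group at 0 and is no measured size. Among NF-kB regulators they were −2.13 for NFKBIA, −2.33 for NFKBIZ, 2.56 for TRAF1, −1.81 for TNFAIP3 and −3.15 for BCL3. Among interferon-branch genes they were −1.49 for IFIT3, −0.59 for IFIT1, −0.90 for RSAD2, −0.87 for IFIT2 and −0.79 for IRF1. Among AP-1, C/EBP and related factors they were −2.70 for FOS, −2.20 for FOSB, −1.14 for EGR1, −2.78 for CEBPD and −0.96 for JUNB. Among genes for message decay they were −1.14 for ZC3H12A, −1.38 for ZFP36, −1.48 for DUSP1, 0.61 for ZFP36L2 and −0.38 for ZFP36L1. Among genes for cleavage they were −1.46 for MMP13, −4.48 for MMP1, −0.76 for ADAM17 and −0.89 for CTSL. In the NRF2 list they were −2.09 for HMOX1, 0.28 for NQO1 and 0.59 for KEAP1. Of the 32 differences, 26 were lower and 6, IL24 among them, higher in CAL27. Over all genes tested, 19.8% were lower and 14.2% higher. Most of the named genes were picked for a large called change in a line, so the 32 are not a fair sample of their lists.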

How the results depend on the processing

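With the A431 libraries fitted alone, 1 listed chemokine was called lower instead of 2 and 3 higher instead of 4, and CXCL10, CCL20, CCL2 and CX3CL1 no longer passed the filter. Leaving out 1 library at a time gave 1 to 3 listed chemokines lower and 3 to 4 higher in A431, 8 lower and 1 higher in CAL27, and 5 to 6 lower and 0 to 1 higher for the difference between lines, the 1 being CCL5. Changes that were not called crossed 0 for 2 genes: CXCL2 in A431 ranged from −0.29 (without A431 DMSO replicate 2) to 1.23, and CXCL3 in CAL27 from −0.10 (without CAL27 NEDD8i replicate 2), through −0.01 (without CAL27 DMSO replicate 1), to 0.19. Deviations of same-numbered libraries showed little correlation between groups (r of −0.0303 to 0.0194), which cannot exclude that such libraries were set up together. With a replicate block, 4218 genes were higher and 3878 lower in A431 and 4317 and 4900 in CAL27, 4 chemokines were higher and 3 lower in A431, CXCL10 being the added one (adjusted p = 0.0371), and the other chemokine calls were the same. No other count of calls moved by over 1.5 times. Low counts in A431 limit CXCL3, CXCL10, CXCL11 and CCL20 there.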
